A study of Rattus norvegicus with 6 samples.

Results

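Nabp1 and Nabp2 encode the 2 alternative single-strand DNA binding subunits of the SOSS complex, and Ints3 encodes the scaffold of that complex. Rpa1, Rpa2 and Rpa3 encode the large, middle and small subunits of replication protein A (RPA), the main single-strand DNA binding complex of eukaryotic cells. Probes were taken as members when their accession belonged to 1 of these 6 rat genes in the RefSeq table of assembly GRCr8. In all, 5 of the 61537 non-control probes matched, and they covered 4 of the 6 genes, of 15645 genes with a matched probe. Nabp1 had 2 probes, both annotated to the transcript NM_001014216, and Nabp2 (NM_001034939), Rpa2 (NM_021582) and Rpa3 (NM_001106584) had 1 each. Ints3 and Rpa1 were not matched to a probe and were not analysed here. Nabp1 was singled out because its dimmer probe passed the adjusted threshold of the comparison described here, so its treated and vehicle levels are given as a description with no test. The other members were included for their roles beside Nabp1.

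Renal cortex came from male Sprague-Dawley (Crl:CD(SD)) rats bought at 5 weeks of age and dosed for 4 weeks. The vehicle group (VC in the labels) was 3 rats given corn oil, and the treated group was 3 rats that received 250 mg/kg/day of sulfone bis(p-chlorophenyl), in which a sulfone group joins chlorinated benzene rings. All 6 rats ate a basal diet, the labels name no genetic modification, and each rat gave 1 array with 1 colour (Cy3). The comparison addressed what repeated dosing did to transcript levels in the cortex.

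Single-stranded DNA appears wherever DNA is unwound for replication, is cut back at a double-strand break, or is left unwound at a stalled fork. RPA coats such DNA, melts out hairpins and serves as the platform on which the ATR kinase and the recombination proteins assemble. The SOSS complex pairs either NABP1 or NABP2 with INTS3 and the small protein INIP, binds single-stranded DNA at broken ends and takes part in ATM signalling and homologous recombination. INTS3 is also a subunit of Integrator, which cleaves and terminates nascent RNA on the RNA polymerase II machinery. The adult renal cortex is a tissue of mostly resting cells, in which proximal tubule cells make up the bulk of the RNA.

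The sequences upstream of the Nabp1 and Nabp2 start sites are shown because these 2 genes encode interchangeable subunits and had different patterns across the arrays. Each is the 250 bases before the RefSeq start site, read 5′ to 3′ on the strand of the gene from the RefSeq table of GRCr8. Nabp1 is at chr9:57618691-57618940 on the plus strand, for 1 listed start site among several RefSeq transcripts, and Nabp2, for the first of its 2 listed start sites, is at chr7:1421094-1421343 on the minus strand. Capitals mark GC boxes (GGGCGG) and CCAAT boxes (CCAAT) on either strand, and none of these matches overlapped another.
Nabp1: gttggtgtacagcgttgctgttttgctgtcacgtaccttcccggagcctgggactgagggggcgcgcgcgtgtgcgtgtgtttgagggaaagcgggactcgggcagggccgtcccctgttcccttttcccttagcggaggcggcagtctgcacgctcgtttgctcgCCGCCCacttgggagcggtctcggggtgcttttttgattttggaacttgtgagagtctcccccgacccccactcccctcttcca
Nabp2: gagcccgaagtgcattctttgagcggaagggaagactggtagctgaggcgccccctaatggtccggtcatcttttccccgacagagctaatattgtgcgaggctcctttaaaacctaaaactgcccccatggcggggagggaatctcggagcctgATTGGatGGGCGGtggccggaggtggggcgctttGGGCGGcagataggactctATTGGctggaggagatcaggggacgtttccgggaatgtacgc
The Nabp1 window held 1 GC box and 0 CCAAT boxes, and the Nabp2 window held 2 of each. Among 33360 windows of the same length, 30.5% held a GC box and 34.0% a CCAAT box. The Rpa2 window held 2 CCAAT boxes and 0 GC boxes, that of Rpa1 1 CCAAT box and 5 GC boxes, and that of Ints3 3 CCAAT boxes and 0 GC boxes. GC content was 62.4% for Nabp1, 58.4% for Nabp2 (67.2% before its second start site), 48.8% for Rpa2, 68.4% for Rpa1 and 63.2% for Ints3. The median over all windows was 51.6%. TATA boxes (TATAAA), cAMP response elements (TGACGTCA), E2F sites (TTTGGCGC, TTTCGCGC or TTTCCCGC), interferon-stimulated response elements and the antioxidant response element core (TGACNNNGC) had no match in the windows of Nabp1, Nabp2, Ints3, Rpa1 and Rpa2. These motifs were present in 12.9%, 1.59%, 1.42%, 3.41% and 10.1% of all windows. An E-box (CACGTG), present in 5.61% of all windows, was found in the Rpa1 window and in none of the other 4 members' windows. A match is a run of letters, not a measured binding site.

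Values are log2 of the processed signal minus the 75th percentile of the same array, so that 0 is the 75th percentile of all non-control probes. The scanner software writes a processed signal for each spot after subtracting background, with an error estimate of its own. The 75th percentile was between 910.3 and 1101.5 signal units, and 66.1% to 68.2% of probes passed the software's test for being well above background. All 3 vehicle arrays and treated 1 shared slide 1 and scan 1, and treated 2 and 3 shared slide 2 and scan 2. Markers of the cortex were bright on every array: Slc34a1, the phosphate carrier of the proximal tubule, had log2 signals of 7.82 to 8.39, Lrp2 (megalin) of 6.06 to 6.55, Umod of the thick limb of 8.02 to 8.79 and Nphs1 of the podocyte of 0.88 to 1.21. All 6 proximal tubule markers were well above background on all arrays.

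The bright Nabp1 probe (A_44_P211182) was lower in every treated rat than in any vehicle rat. Its processed signals were 1422, 1309 and 1129 in vehicle 1, 2 and 3 and 569.2, 588.0 and 588.2 in treated 1, 2 and 3, with software errors of 113.0 to 142.2 in vehicle and 57.2 to 59.0 in treated arrays. On the scaled log2 axis these were 0.49, 0.33 and 0.13 in the vehicle arrays and -0.95, -0.63 and -0.64 in the treated arrays. The lowest vehicle array stood 0.76 above the highest treated array, a gap wider than the range of either group (0.36 in vehicle and 0.32 in treated). The vehicle mean of 0.32 ± 0.18 (SD, n = 3) compared with a treated mean of -0.74 ± 0.18 (SD, n = 3), a difference of -1.06 on the log2 scale (SE 0.14) or a 2.08-fold lower level.

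The dim Nabp1 probe (A_44_P1001317) was detected in vehicle cortex and not in treated cortex. Its processed signals were 51.1, 50.7 and 37.8 in vehicle 1, 2 and 3, each well above background, with software errors of 6.34 to 6.83. In treated 1, 2 and 3 they were 6.18, 4.61 and 4.11, none well above background and each about the size of its own error (6.20, 4.63 and 4.13). The lowest signal accepted as well above background on those 3 arrays was 26.9, 18.5 and 16.7. Set against that limit, the probe was at least 2.16-fold lower in treated arrays, from the mean of the 3 vehicle log2 values (-4.48 ± 0.25, SD, n = 3) and the mean of the per-array limits. The measured treated mean of -7.63 ± 0.16 (SD, n = 3) would give a difference of -3.15, which rests on signals that could not be told from background. The bound is set by the detection limit of the treated arrays, and how far the dim probe lies beyond it was not measurable. This probe entered the comparison only through its vehicle values. It was not called with a floor on dim values, added after seeing the data, where 0 probes were called.

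Both Nabp1 probes ranked the vehicle rats in the same order, with vehicle 1 highest and vehicle 3 lowest. On both probes vehicle 1 and 2 differed by less than their software errors, so the order of these rats was not resolved. Among the treated rats the bright probe was lowest in treated 1, on the same slide as the vehicle arrays. Within slide 1, treated 1 was 1.27 below the mean of the 3 vehicle arrays on the log2 scale for the bright probe. Treated 2 and 3, on slide 2, were 0.95 and 0.96 below that mean. For the dim probe, treated 1 was 3.00 below the vehicle mean and treated 2 and 3 averaged 3.23 below it, on values not well above background. The groups did not overlap for either Nabp1 probe, beside 17.0% of all 40643 tested probes with every treated array below every vehicle array; Nabp1 was chosen from this contrast, so nothing is read from that count.

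**Figure D1:**
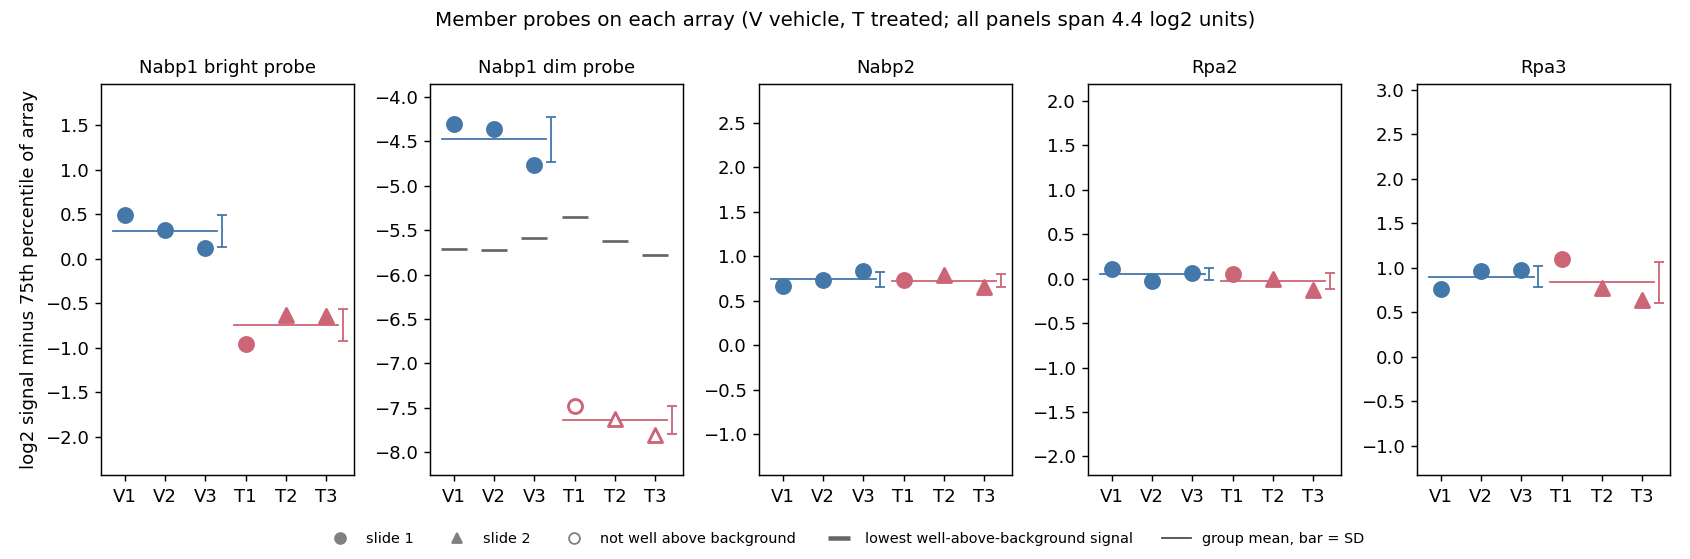
Log2 signal of the 5 member probes on each array, scaled to the array's 75th percentile, with the vehicle arrays (V1 to V3, blue) and the treated arrays (T1 to T3, red), group means as lines and SD as bars (n = 3). Both Nabp1 probes separate the groups, the treated values of the dim probe lie under the lowest signal accepted as well above background (grey dashes), and the groups overlap for Nabp2, Rpa2 and Rpa3.

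Nabp2, which encodes the other single-strand DNA binding subunit of SOSS, had nearly equal levels in both groups. On the log2 scale, vehicle 1, 2 and 3 read 0.66, 0.74 and 0.83, while treated 1, 2 and 3 read 0.73, 0.79 and 0.65. The groups overlapped over almost their whole range. The vehicle mean of 0.74 ± 0.08 (SD, n = 3) compared with a treated mean of 0.72 ± 0.07 (SD, n = 3), a difference of -0.02 (SE 0.08, limma adjusted p = 0.912). The 95% interval of the difference ran from -0.22 to 0.18, or 0.859-fold to 1.14-fold. With treated 1 alone against the vehicle arrays on slide 1 the difference was -0.01, and with treated 2 and 3 it was -0.02. The sign of so small a difference was not stable: it was 0.02 with the arrays centred on the median, 0.025 without vehicle 3 and 0.02 without treated 3.

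Rpa2, the RPA subunit whose N-terminus is phosphorylated by the checkpoint kinases, also overlapped between the groups. On the log2 scale, vehicle 1, 2 and 3 read 0.11, -0.02 and 0.06, while treated 1, 2 and 3 read 0.05, -0.01 and -0.13. Treated 3 was the lowest of the 6 arrays and the other treated arrays lay inside the vehicle range. The means were 0.05 ± 0.07 (SD, n = 3) and -0.03 ± 0.09 (SD, n = 3), a difference of -0.08 (SE 0.08, 95% interval -0.28 to 0.13, limma adjusted p = 0.616). Within slide 1 the difference was 0.003.

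Rpa3, the small RPA subunit that forms part of the trimer core, varied most of the 3 partners. On the log2 scale, vehicle 1, 2 and 3 read 0.76, 0.96 and 0.98, while treated 1, 2 and 3 read 1.096, 0.77 and 0.64. Treated 1 was the highest and treated 3 the lowest of all 6 arrays, so that the treated range (0.45) enclosed the vehicle range (0.22). Treated 1 was above treated 2 and treated 3 for Rpa3, as for Rpa2 and not for Nabp2, beside 36.5% of all tested probes. The means were 0.90 ± 0.12 (SD, n = 3) and 0.84 ± 0.23 (SD, n = 3), a difference of -0.06 (SE 0.14, 95% interval -0.40 to 0.28, limma adjusted p = 0.817). Treated 1 exceeded the vehicle mean on its own slide by 0.20, and treated 2 and 3 on slide 2 were below it by a mean difference of -0.19. The part of the slide in this split was not tested. The RefSeq table also lists the gene Rpa3l1 and the pseudogenes Rpa3-ps1 and Rpa3-ps2, and whether the Rpa3 probe binds their transcripts was not tested.

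By limma's test with Benjamini-Hochberg adjustment over all 40643 tested probes, 0 of the 3 partner probes were called, and 0 had an unadjusted p under 0.05. Over all tested probes 3 were called (0.00738%), 1 higher (0.00246%) and 2 lower (0.00492%), and 20.6% had an unadjusted p under 0.05. The partner probes thus had unadjusted p-values of 0.385 to 0.828 in a comparison in which few probes passed the adjusted threshold at all. All 3 intervals included 0, and the widest, that of Rpa3, ran from -0.40 to 0.28. The difference between Nabp1 and its partners was not tested, since Nabp1 was chosen for its value.

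**Figure D2:**
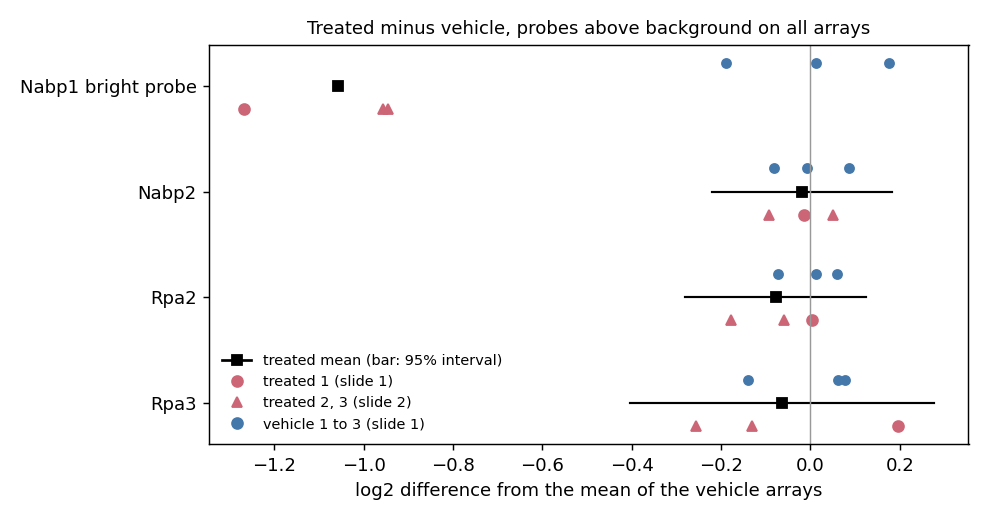
Log2 difference from the mean of the 3 vehicle arrays for the 4 member probes well above background on all arrays: black squares are treated means, with the 95% interval from limma for the partners, and coloured points are single arrays by slide. The 3 treated points of Nabp1 lie between -1.27 and -0.95, whereas those of Nabp2, Rpa2 and Rpa3 fall on both sides of 0.

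Markers of immune cells were also lower in some treated arrays. Of tested genes, 6 of 7 lymphocyte and 5 of 5 macrophage markers had a negative difference, against 6364 of 12118 genes in all, and 0 were called by limma. The 8 lymphocyte markers with a probe, of 10 listed, summed to 1.91 to 2.47 times the 75th percentile in vehicle and 1.54 to 2.2 times in treated arrays, and the 6 macrophage markers to 80.9 to 92.5 in vehicle and 57.9 to 94.3 in treated arrays. Ptprc, the common leukocyte antigen CD45, was at 0.08, -0.40 and -0.06 (log2 signal) in vehicle rats, against -0.32, -0.85 and -0.67 in treated rats, and Cd68, a macrophage lysosomal protein, was at 1.05, 0.67 and 0.93 against 0.79, 0.34 and 0.39. Of 8 lymphocyte probes, 6 were well above background on all arrays, as were 5 of 6 macrophage probes, while the T cell marker Cd3e was well above background on 2 vehicle and 0 treated arrays and the macrophage marker Cd163, named after its values were seen, on 1 and 0. The macrophage sum was mostly that of Lyz2, a lysozyme gene named after its values were seen, at 6.39, 6.23 and 6.39 against 6.45, 5.70 and 5.77 on the log2 scale. In treated 1 the sums were 2.2 for lymphocyte and 94.3 for macrophage markers, while Adgre1, Cd2 and Cd4, also chosen after their values were seen, were each below every vehicle array there. In bulk cortex, fewer cells of a type and less RNA per cell cannot be told apart. Alb encodes albumin, which is made mainly by hepatocytes. It was at 3.49, 2.43 and -0.28 on the log2 scale for vehicle 1, 2 and 3, against 1.26, 2.12 and 3.92 for treated 1, 2 and 3. The vehicle rats thus had the order of both Nabp1 probes. Among treated rats, treated 1 was lowest for Alb and for the bright Nabp1 probe. The bright probe did not resolve treated 2 from treated 3, and the dim probe was not well above background in any treated rat. The part of these cells and transcripts in the Nabp1 values was not tested.

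Among genes measured on all 6 arrays, the pattern most like that of the bright Nabp1 probe was shown by Dclk2, Bcl6b, Tg, Tmem69 and Tra2b. Likeness was Pearson's r over the 6 arrays, which share the treatment contrast, among 11685 genes, and it is given as a description. The coefficients were 0.997 for Dclk2, a doublecortin-like kinase, 0.997 for Bcl6b, a transcriptional repressor, 0.996 for Tg, the thyroglobulin gene, 0.996 for Tmem69 and 0.995 for Tra2b, a splicing factor. Dclk2 was at -0.70, -0.855 and -0.999 (log2 signal) in vehicle rats, against -1.75, -1.46 and -1.55 in treated rats, and Bcl6b was at -0.78, -1.004 and -1.10 against -1.92, -1.67 and -1.74. Both had the order of Nabp1 within the vehicle group and their lowest value in treated 1. Over deviations from the group means, r with Nabp1 was 0.975 for Dclk2 and 0.957 for Bcl6b. Tra2b had that order within the vehicle group too, with a smaller treated minus vehicle difference of -0.25. Of the partners, Nabp2 had an r of -0.007 with the bright Nabp1 probe over the 6 arrays, Rpa2 of 0.419 and Rpa3 of -0.037. Over deviations from the group means these were -0.546, -0.306 and -0.88. The dim Nabp1 probe had an r of 0.964, which rests on treated values not well above background, and of 0.248 over deviations from the group means.

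**Figure D3:**
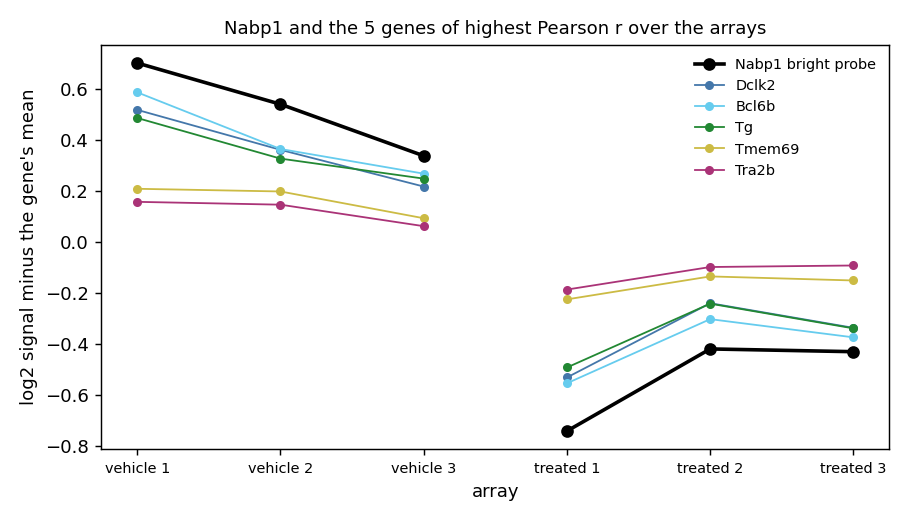
Log2 signal of the bright Nabp1 probe (black) and of the 5 genes with the highest Pearson r to it, each minus its mean over the 6 arrays, with lines joining the arrays of a group only to guide the eye. All 6 genes are highest in vehicle 1 and lowest in treated 1.

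Around these members, 7 lists of genes of Integrator, single-strand DNA binding, checkpoint signalling, repair, replication and the p53 response were examined, with each gene represented by its brightest tested probe. Of 117 tested genes, 0 were called by limma after adjustment over all probes, against 2 of 12118 genes in all (0.0165%). An unadjusted p under 0.05 was seen for 28 list genes that were lower and 8 that were higher. Over all tested genes, 11.3% were lower and 10.1% higher at that level, with a median log2 difference of -0.01 and a negative difference in 6364 genes.

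The list of other Integrator and SOSS subunits had a median log2 difference of -0.11 over 10 tested genes of 16 listed. All 10 were Integrator subunits, and Inip, which encodes the small SOSS protein, was not matched to a probe. In this list 0 genes were called and 2 were lower at an unadjusted p under 0.05. These 2 were Ints2 and Ints10, both subunits of the Integrator complex to which INTS3 also belongs. Ints2 was at -3.09, -3.02 and -3.08 (log2 signal) in vehicle rats, against -3.41, -3.53 and -3.54 in treated rats, a difference of -0.43 (SE 0.07, limma adjusted p = 0.096). Ints10 was at -0.73, -0.78 and -0.78 against -0.93, -0.95 and -1.04, a difference of -0.21 (SE 0.07, limma adjusted p = 0.197). In both genes every treated array was below every vehicle array, as in 16.8% of all tested genes.

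Genes that act on RPA-coated DNA in checkpoint signalling and fork protection had a median of -0.02 over 12 tested genes of 19 listed, with 0 called and 1 lower at an unadjusted p under 0.05. Chek1, the effector kinase of ATR, had the largest difference, -0.27 (SE 0.18, limma adjusted p = 0.437), with overlapping groups, and Rad18, the ligase that RPA brings to stalled forks, had -0.26 (SE 0.09, limma adjusted p = 0.215). Homologous recombination genes had a median of -0.25 over 16 tested genes of 26 listed, with 0 called and 6 (37.5%) lower at an unadjusted p under 0.05. Of the 16, 12 had a negative difference and 4 a positive one, over a range of -0.76 to 0.81. The highest (SE 0.44, limma adjusted p = 0.338) was 1.83 above the vehicle mean in treated 1 and 0.30 above it on average in treated 2 and 3. Against the vehicle mean, the list's median was -0.07, -0.31 and -0.41 in treated 1, 2 and 3, so that treated 1 was the nearest to vehicle by this median.

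Other single-strand DNA binding proteins, among them the mitochondrial, telomeric and meiotic ones, had a median of 0.03 over 10 tested genes of 14 listed, with 0 called and 2 lower at an unadjusted p under 0.05. The largest differences were those of Spata22, a meiotic partner of RPA (0.79, SE 0.56, limma adjusted p = 0.452), and Ten1, a subunit of the telomeric CST complex that resembles RPA (0.67, SE 0.36, limma adjusted p = 0.335). Both overlapped between the groups. Nucleotide excision repair genes, where RPA holds the undamaged strand, had a median of 0.006 over 16 tested genes of 20 listed, with 0 called, 3 lower and 2 higher at an unadjusted p under 0.05. The helicase gene Ercc2 had a difference of -0.34 (SE 0.09, limma adjusted p = 0.159) and Ercc6, which acts in transcription-coupled repair, of -0.34 (SE 0.08, limma adjusted p = 0.134).

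DNA replication and cell division genes had the lowest median, -0.32 over 35 tested genes of 38 listed, with 0 called and 13 (37.1%) lower and 2 higher at an unadjusted p under 0.05. Of the 35, 29 had a negative difference, and the median was -0.14 with normexp background correction. Rrm2, the regulated subunit of ribonucleotide reductase, was at 1.08, 1.13 and 0.87 (log2 signal) in vehicle rats, against 0.52, 0.35 and -0.76 in treated rats, a difference of -0.99 (SE 0.34, limma adjusted p = 0.199). Ccna2, the cyclin of S phase and G2, had a difference of -0.77 (SE 0.27, limma adjusted p = 0.208). Against the vehicle mean, the list's median was -0.15, -0.21 and -0.49 in treated 1, 2 and 3. By this median treated 1 was the nearest to vehicle, though not for every gene of the list. For the bright Nabp1 probe treated 1 was the farthest from vehicle. The macrophage and lymphocyte markers described above had medians of -0.36 and -0.38, and in treated 1, 2 and 3 those of macrophage were -0.03, -0.54 and -0.50 and those of lymphocyte -0.19, -0.44 and -0.50; their part in the values of this list was not tested. The p53 targets had a median of -0.01 over 18 tested genes of 21 listed, with 0 called and 4 higher and 1 lower at an unadjusted p under 0.05. In treated 1, 2 and 3 the list's median was 0.08, 0.06 and 0.12 against the vehicle mean. Every treated array was above every vehicle array in 5 genes (27.8%) and below in 0, against 13.9% and 16.8% of all tested genes. Plk3, a stress-responsive kinase, had a difference of 1.28 (SE 0.31, limma adjusted p = 0.136) and Gadd45a, a growth arrest gene, of 0.81 (SE 0.20, limma adjusted p = 0.137). Cdkn1a, the canonical p53 target and chosen here after its value was seen, had a difference of -0.005 (SE 0.09).

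**Figure D4:**
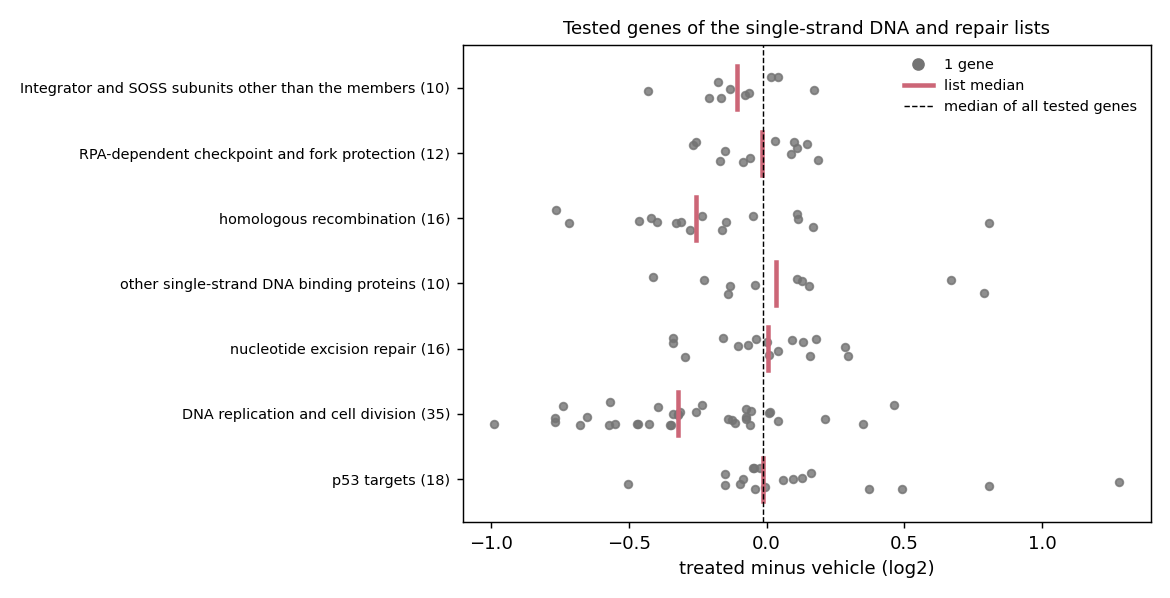
Treated minus vehicle difference on the log2 scale of each tested gene in the 7 lists (grey points, number of genes in brackets), with list medians in red and the median of all 12118 tested genes as a dashed line. The medians of homologous recombination (-0.25) and of DNA replication and cell division (-0.32) lie farthest to the left, and no single gene passed the adjusted threshold.

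Without treated 1 the calls changed in number: 4307 probes (10.6% of those tested) were then called, 1469 higher and 2838 lower, and 11 of the 117 list genes (9.4%). In that comparison the treated arrays were all on slide 2 and the vehicle arrays all on slide 1, so slide and treatment cannot be told apart. The 3 partner probes were not called there either. The 11 genes, chosen after their values were seen, were lower in 10 cases, including Mcm3 (-0.998), Mcm4 (-0.51), Gins1 (-0.65), Ints2 (-0.47) and Ercc3 (-0.34), and higher for Gadd45a (1.02). The bright Nabp1 probe had a difference of -0.95 without treated 1.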

How the data were processed

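Spot intensity on a linear scale was read by the authors from each scan, with Feature Extraction 10.7.1.1 (Agilent) per the file headers, and the submitters' processing notes name version 10.7. Their series table holds linear intensity values too, close to each processed signal over the 75th percentile of its array, with column medians of 0.105 to 0.11; its exact scaling is not given in the sources used here.

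Each deposited processed signal was divided by the 75th percentile of the 61537 non-control probes (1 spot each) on its array and put on the log2 scale. No probe was saturated, and 11 with an outlier flag were left out. The 40643 probes well above background on all 3 arrays of a group were tested by lmFit and eBayes of limma 3.58.1 under R 4.3.3 (two-sided, Benjamini-Hochberg over all of them, threshold 0.05), after a test on simulated data. Accessions were matched without versions to the RefSeq table of GRCr8: 28206 probes had 1 symbol, 33331 none and 0 several. A lower bound sets the brighter group against the lowest signal well above background on each array, or the probe's own where higher. With 3 arrays per group the precision is limited. The p-values measure the spread between these arrays, in which differences between rats, slides and scans are not separated.

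The members and lists were chosen with earlier results of these data known. Named genes are all members, the called or else the 2 largest differences of each list among genes measured on all arrays, the 5 genes most like Nabp1 and 8 cell markers; others are said to be chosen after their values were seen. Genes the rule picks from the homologous recombination list are not reported here by name. Of the cell marker lists, lymphocyte and macrophage sums are given in the report. Those of thick limb and distal tubule (305 to 436 in vehicle, 407 to 493 in treated), collecting duct (179 to 202, 149 to 192), podocyte (27.7 to 30.1, 28.0 to 44.5), endothelium (30.6 to 33.1, 28.6 to 32.6), liver (2.84 to 23.8, 5.98 to 35.3), adipocyte (0.807 to 0.929, 0.588 to 1.05) and proximal tubule (879 to 924, 722 to 966) are in multiples of the 75th percentile. Replicate numbers did not pair the rats: deviations from the group means correlated at -0.21, 0.01 and -0.16 for numbers 1, 2 and 3. Median spot signals went into the normexp alternative. Alternatives covered background correction, normalization, filters, the series table, slide, the replicate block, the variance model and each array left out. The floor on dim values was added after seeing the data.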

Additional observations from a re-analysis of the deposited data

How the results depend on the processing

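The count of 3 called probes was 136 with normexp background correction, 17 with median centring, 156 with a trended and robust variance, 1 without a filter on dim probes, 1 with slide as a fixed block and 0 with the replicate block, with a floor set for dim values (added after seeing the data) or when a probe had to be above background on every array. It ran from 0 (without vehicle 2 or without treated 2) to 4307 (without treated 1) when single arrays were left out. The cause was not tested. The partner probes were called in 0 of 17 alternatives. The list genes called numbered 0 except without treated 1, giving a range of 0 to 11 over the arrays left out. The bright Nabp1 probe ranged from -1.15 to -0.95 with single arrays left out and was -1.27 with slide as a fixed block. Slide 2 held treated arrays only, so with slide as a fixed block a difference compared treated 1 alone with the vehicle arrays. The dim Nabp1 probe ranged from -3.30 to -3.07 with single arrays left out, and was -0.63 with normexp, whose offset compresses dim signals, and -1.11 with the floor, which by construction raises its treated values. The sign turned for Nabp2 with median centring (0.0191), without vehicle 3 (0.025) and without treated 3 (0.0181), over a range of -0.0589 to 0.025 with single arrays left out. It turned for Rpa2 with slide as a fixed block (0.0032). For Rpa3 it turned with normexp (0.0572), slide as a fixed block (0.1961), slide as a random block (0.0506) and without treated 3 (0.0331). With single arrays left out, Rpa3 ranged from -0.19 to 0.0331. The cause of these turns was not tested, and each partner stayed above a limma adjusted p of 0.25. List medians moved beyond their spread between arrays in 16 cases, 6 of them with slide as a fixed block. There homologous recombination was -0.07 and DNA replication and cell division -0.15. Both values repeat the medians of treated 1 given above. The replicate block changed no other call and left all differences as they were.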
